A study of Mus musculus with 65 samples.

Results

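Mitochondrial ribosomal protein genes are nuclear genes for the proteins of the mitochondrial ribosome. They were taken here as the protein-coding genes of mouse build mm10 whose symbol is Mrpl or Mrps followed by digits, which gave 78 genes, 49 with Mrpl and 29 with Mrps symbols. A transcription start site (TSS) region of the deposited table lay within 1000 bp of the gene start for 71 of them, 44 Mrpl and 27 Mrps genes, out of 18471 protein-coding genes with such a region. Mrpl18, Mrpl22, Mrpl24, Mrpl33, Mrpl4, Mrps23 and Mrps24 had no region within that distance and were not measured. Mrpl46 and Mrps11 lie head to head and share a region, so the 71 genes stand for 70 regions. The measurements are of chromatin accessibility at gene starts, not of RNA.

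The mitochondrial ribosome translates the few messages encoded by mitochondrial DNA, all of them for subunits of the respiratory chain or of ATP synthase. Its RNAs come from the organelle, but all of its proteins are transcribed in the nucleus, translated in the cytosol and imported, so that a large set of dispersed genes must be transcribed together. The promoters of these genes are mostly rich in CpG and active in nearly all cells, and nuclear respiratory factors such as NRF1 and GABP are known regulators of many of them. A symbol does not always give the subunit: the Mrps18a and Mrps30 proteins sit in the large subunit, and Mrps36 is known mainly as a part of the 2-oxoglutarate dehydrogenase complex.

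Cells were E14TG2a, a line of mouse embryonic stem cells of 129 origin, kept on gelatin in serum with leukaemia inhibitory factor. In repli-ATAC-seq, replicating DNA is labelled with the thymidine analogue EdU (20 uM for 10 min), accessible chromatin is cut by Tn5 transposase, and EdU-carrying fragments are pulled down with streptavidin. Chromatin taken straight after the pulse is nascent, and chromatin taken after a 2 h chase in 10 uM thymidine has had that time to mature. Fragments that the beads did not hold form the unbound fraction, mostly from DNA that was not replicating during the pulse. In the inhibitor experiment the cells received triptolide, DRB or DMSO for 2 h before EdU. Triptolide targets the XPB subunit of TFIIH and so blocks transcription initiation, and DRB inhibits the CDK9 kinase and so blocks the release of paused RNA polymerase II. The sources used here give neither the drug doses nor whether the drug stayed on in the chase. There were 12 groups of 3 libraries each, namely 2 h and nascent chromatin with triptolide, DRB or DMSO, each as EdU and unbound fraction. A further experiment with EdU-labelled Drosophila S2 cells added (100 cells) has 2 libraries each of 2 h and nascent chromatin without inhibitor. Peak lists cover nascent, 30 min, 1 h and 2 h chromatin, untreated cells at steady state, and chromatin immunoprecipitation of RNA polymerase II phosphorylated on serine 5 of its tail (S5P) from total chromatin, with 1 list per group. These lists hold positions without heights.

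Reads per library, recovered from the smallest step of the deposited values, were between 1299334 and 5554604 in the EdU fraction and between 2351201 and 14363372 in the unbound fraction. A median member window held 3 to 7 reads in the nascent triptolide libraries and 4 to 8.5 reads in the nascent DMSO libraries, and 7 to 8.5 reads in the 2 h triptolide libraries against 13.5 to 18.5 reads in the 2 h DMSO libraries. The values of single genes in nascent chromatin therefore carry a large counting error, and a change that did not pass a test may have been too small for this depth. The cells were measured in bulk, so fewer cells with an open site and a less open site in each cell cannot be told apart. All 8 embryonic stem cell markers checked (Pou5f1, Sox2, Nanog, Zfp42, Tdgf1, Dppa4, Fgf4 and Klf4) had a steady-state peak at the start. So had all 4 fibroblast and all 4 neural markers with a region, 3 of 3 trophectoderm and 4 of 5 primitive endoderm markers. A steady-state peak thus did not separate these cell types. The S5P list held 6 of the 8 stem cell markers, without Pou5f1 and Dppa4. It held 1 of 4 fibroblast, 1 of 4 neural, 1 of 3 trophectoderm and 1 of 5 primitive endoderm markers. In 30 of the 71 member windows the start of another gene was also present, for example Sars2 beside Mrps12, Hira beside Mrpl40, Fau beside Mrpl49 and Psma2 beside Mrpl32, and reads there cannot be assigned to either gene. For 8 members the TSS region is annotated on the strand opposite to the gene. For 11 members the region lies over 200 bp from the gene start, at most 891 bp for Mrps31. The windows of Mrps31, Mrps2, Mrpl14, Mrpl20, Mrpl23 and Mrpl45 do not hold the start of the gene itself.

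Promoter sequences of 63 of the 71 genes were at hand. The 6 printed here are the genes that the triptolide results turn on: Mrps16 and Mrpl17, whose falls with triptolide stayed under all alternatives run, Mrps12 and Mrps26, which fell at both times, Mrpl12, which fell and holds none of the motifs searched, and Mrpl42, whose triptolide values lay closest to those of DMSO at 2 h. They are from RefSeq on GRCm38.p6, run from 250 bases before to 50 after the annotated start, and read 5′ to 3′ on the strand of the gene. They cover chr14:20393441-20393740 (minus strand), chr7:105811038-105811337 (minus), chr7:28741772-28742071 (minus), chr2:130563507-130563806 (plus), chr11:120484387-120484686 (plus) and chr10:95501900-95502199 (minus) in the order printed. Capitals mark matches on either strand to the motifs of NRF1, the ETS family (which includes GABP), YY1, the SP family, NFY and the TATA box, whose letters are given after the sequences, and matches that overlap run on as 1 stretch. For Mrps16 the start used lies inside the gene, which begins at chr14:20393634, and both ETS matches lie downstream of that position.
Mrps16: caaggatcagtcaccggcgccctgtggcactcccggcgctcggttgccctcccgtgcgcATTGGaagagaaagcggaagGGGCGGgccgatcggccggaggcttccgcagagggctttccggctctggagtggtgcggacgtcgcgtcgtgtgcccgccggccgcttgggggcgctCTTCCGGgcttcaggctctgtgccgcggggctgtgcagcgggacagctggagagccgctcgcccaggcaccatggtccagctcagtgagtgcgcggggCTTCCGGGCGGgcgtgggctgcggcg
Mrpl17: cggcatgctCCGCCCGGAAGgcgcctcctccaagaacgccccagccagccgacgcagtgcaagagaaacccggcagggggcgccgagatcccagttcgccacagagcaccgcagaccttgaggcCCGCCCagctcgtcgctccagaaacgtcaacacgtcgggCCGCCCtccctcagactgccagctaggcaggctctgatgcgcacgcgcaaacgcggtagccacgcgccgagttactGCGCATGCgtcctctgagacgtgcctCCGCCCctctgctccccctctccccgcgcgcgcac
Mrps12: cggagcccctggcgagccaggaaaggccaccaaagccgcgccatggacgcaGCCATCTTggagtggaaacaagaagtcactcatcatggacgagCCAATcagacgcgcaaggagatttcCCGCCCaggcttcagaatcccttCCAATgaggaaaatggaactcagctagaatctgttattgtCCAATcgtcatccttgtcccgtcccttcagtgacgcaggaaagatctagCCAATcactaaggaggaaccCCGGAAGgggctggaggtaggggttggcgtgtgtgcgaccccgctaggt
Mrps26: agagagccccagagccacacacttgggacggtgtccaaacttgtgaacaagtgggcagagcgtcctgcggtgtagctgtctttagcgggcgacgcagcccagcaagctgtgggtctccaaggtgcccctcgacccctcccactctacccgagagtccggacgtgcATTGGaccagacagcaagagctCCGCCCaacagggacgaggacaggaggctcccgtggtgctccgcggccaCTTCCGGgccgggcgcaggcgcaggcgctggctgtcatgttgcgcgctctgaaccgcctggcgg
Mrpl12: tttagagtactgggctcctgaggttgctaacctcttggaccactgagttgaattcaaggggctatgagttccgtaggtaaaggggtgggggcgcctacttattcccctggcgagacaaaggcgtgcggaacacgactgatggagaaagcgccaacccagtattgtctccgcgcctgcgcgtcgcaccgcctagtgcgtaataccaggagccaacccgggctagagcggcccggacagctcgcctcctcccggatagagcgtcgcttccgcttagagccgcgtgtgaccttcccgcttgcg
Mrpl42: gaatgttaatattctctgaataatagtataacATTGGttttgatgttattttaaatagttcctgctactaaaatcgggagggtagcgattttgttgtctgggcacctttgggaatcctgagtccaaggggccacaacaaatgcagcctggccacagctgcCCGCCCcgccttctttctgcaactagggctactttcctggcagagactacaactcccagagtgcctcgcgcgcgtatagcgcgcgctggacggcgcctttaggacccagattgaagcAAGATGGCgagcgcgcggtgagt

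The ETS motif was searched as CCGGAAG, and was present in 33.3% of the member promoters (21 of 63) against 12.6% of 14892 protein-coding promoters of the same length. The YY1 motif, searched as AAGATGGC, was present in 17.5% of member promoters (11 of 63) against 3.32% of all. The NRF1 motif, searched as GCGCATGC, was found in 9.52% of member promoters (6 of 63) against 3.87% of all. The SP motif GGGCGG was in 50.8% of member promoters and 48.8% of all. The NFY motif CCAAT was in 39.7% of member promoters and 39.1% of all. The TATA box, TATAAA, was in 4.76% of member promoters (3 of 63) and 13.1% of all. The median GC content was 58.3% in member promoters and 57.0% over all. A match describes the letters in the window and not a bound factor.

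Accessibility at these genes was higher in matured than in nascent chromatin, and lower with triptolide than with DMSO at both times. Levels are given as reads-per-million (RPM) in the 1 kb window nearest the TSS. The median over the member regions was 2.16, 2.17 and 2.26 RPM in the 2 h triptolide libraries, 4.15, 4.11 and 4.93 RPM with DRB and 5.67, 4.86 and 4.43 RPM with DMSO. In nascent chromatin it was 1.04, 1.36 and 1.26 RPM with triptolide, 1.42, 1.54 and 1.81 RPM with DRB and 2.31, 2.02 and 2.25 RPM with DMSO. The triptolide libraries lay below every DMSO library at either time, and the DRB libraries lay below every DMSO library in nascent chromatin but overlapped them at 2 h. Over all protein-coding genes the corresponding group means of the median were lower, 1.53 ± 0.0802 RPM at 2 h with triptolide, 2.71 ± 0.163 RPM with DRB and 3.22 ± 0.166 RPM with DMSO, and 0.834 ± 0.120, 0.975 ± 0.222 and 1.42 ± 0.232 RPM in nascent chromatin with triptolide, DRB and DMSO (SD, n = 3 each).

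**Figure D1:**
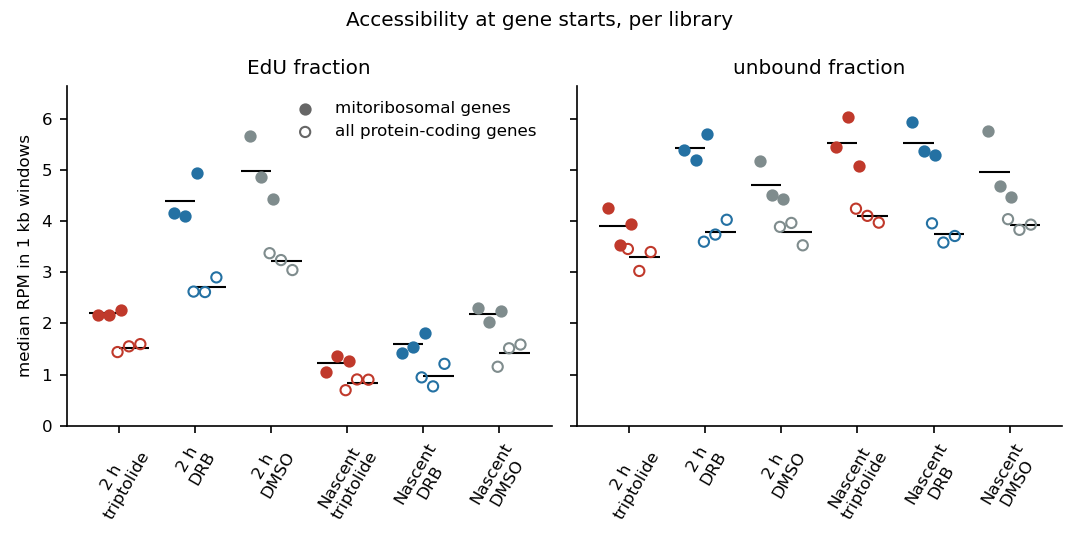
Median RPM in the 1 kb window at the gene start, per library (points) with the group mean (lines), for the 70 mitoribosomal regions (filled) and all protein-coding genes (open), in the EdU fraction (left) and the unbound fraction (right). In the EdU fraction the mitoribosomal median is lowest in nascent triptolide chromatin, between 1.04 and 1.36 RPM, and highest in 2 h DMSO chromatin, between 4.43 and 5.67 RPM.

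The first comparison sets nascent EdU chromatin against the unbound fraction of the same DMSO samples, at the same windows. In DMSO, 57 of the 71 genes had lower accessibility in nascent EdU than in unbound chromatin and none higher, with a median log2 difference of -1.02 (limma on log2(RPM + 1), Benjamini-Hochberg adjusted p under 0.05 over all TSS regions). Over all 30469 regions tested 43.2% were lower, with a median of -0.42, and over protein-coding genes 58.5% were lower, with a median of -0.87. Mrps16, a small-subunit protein conserved from bacteria, had 4.04, 2.52 and 6.35 RPM in nascent EdU libraries and 20.3, 22.1 and 18.2 RPM in unbound libraries (log2 difference -2.06, SE 0.23, adjusted p = 4.27e-10). Mrps12, the protein of the decoding centre that sets the accuracy of translation, had 4.04, 5.05 and 4.50 RPM in nascent EdU and 19.3, 17.4 and 17.1 RPM in unbound chromatin (-1.78, SE 0.23, adjusted p = 8.63e-09). In both genes the highest EdU library lay far below the lowest unbound library. Mrps2 (-2.23), Mrpl40 (-1.89) and Mrpl50 (-1.78) completed the 5 largest differences, though the Mrps2 region lies 381 bp from the Mrps2 start and belongs to 1700007K13Rik on the other strand. Mrps7, a protein of the small-subunit head, was among the exceptions, with 6.34, 6.06 and 6.08 RPM in nascent EdU and 6.58, 5.95 and 4.42 RPM in unbound chromatin (0.12, SE 0.24, adjusted p = 0.729), and Mrps31 differed by -0.13 (adjusted p = 0.762). The Mrps31 region lies 891 bp from the Mrps31 start, which is outside the window. With libraries centred on the median TSS region 33 members were lower and 2 higher (35 past the threshold, median -0.57), and over all regions 8777 were lower and 8675 higher, against 13163 and 1332 as deposited.

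At 2 h this gap was not detectable. In 2 h DMSO chromatin no member was past the threshold between EdU and unbound fractions, and the median difference was -0.03. Nor was any of the 30469 regions (0%), and 1733 of them and 5 members had an unadjusted p under 0.05. With limma-voom on recovered reads the count was also 0. Scaled to background windows, 2 of all regions were higher and 42 lower. Mrps16 stood at 17.8, 20.9 and 13.3 RPM in 2 h EdU and at 16.2, 18.4 and 16.5 RPM in unbound libraries, which overlap.

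Maturation itself was read from 2 h against nascent EdU chromatin with DMSO. Accessibility rose at 40 of the 71 genes and fell at none, with a median log2 difference of 0.92, while 31.2% of all 29799 regions rose with a median of 0.34, and 42.7% of protein-coding genes with a median of 0.69. Among conserved small-subunit genes, Mrps12 had 19.0, 17.6 and 17.7 RPM at 2 h and 4.04, 5.05 and 4.50 RPM in nascent chromatin (1.79, SE 0.29, adjusted p = 2.94e-07). Mrps16 had 17.8, 20.9 and 13.3 RPM at 2 h and 4.04, 2.52 and 6.35 RPM in nascent chromatin (1.83, SE 0.30, adjusted p = 3.24e-07). Both sets of libraries were fully apart. Of the paralogous S18 genes, Mrps18b (1.54, adjusted p = 1.42e-05) and Mrps18c (1.26, adjusted p = 0.00139) rose, and Mrps18a differed by 0.73 (adjusted p = 0.135), with no test of the differences among the 3. The Mrps18b and Mrps18c windows also hold the starts of Ppp1r10 and Helq, and the Mrps18a window holds no other start.

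In the large subunit the stalk and its base gave mixed values. Mrpl12, the stalk protein also reported to bind the mitochondrial RNA polymerase, had 5.82, 8.27 and 4.43 RPM at 2 h and 2.31, 3.03 and 3.70 RPM in nascent chromatin (0.82, SE 0.34, adjusted p = 0.0542). Its libraries did not overlap, but the difference did not pass the threshold. Mrpl10, at the stalk base, had 2.45, 2.16 and 3.04 RPM at 2 h and 2.31, 0 and 0.529 RPM in nascent chromatin (1.04, SE 0.38, adjusted p = 0.0262), a call lost in 6 of the alternative settings (adjusted p up to 0.256), among them those without nascent replicate 2 or 3 or 2 h replicate 1 or 3. Mrpl11, also of the stalk base, differed by -0.31 (adjusted p = 0.577). Mrpl41, a large-subunit protein without a bacterial counterpart, rose by 1.13 (SE 0.31, adjusted p = 0.00192; 0.0671 at most over the alternatives, where leaving out nascent replicate 1 ended the call). Mrpl44, which carries an RNase III-like fold and is mutated in human cardiomyopathy, rose by 1.02 (adjusted p = 0.0212, up to 0.187 over 6 settings in which the call was lost, including without nascent replicates 2 or 3 and without 2 h replicates 1 or 2). Mrpl58, a peptidyl-tRNA hydrolase that rescues stalled ribosomes, differed by 0.74 (adjusted p = 0.0904), and Mrpl3, near the peptidyl transferase centre, by -0.30 (adjusted p = 0.575). Mrps2 (2.01) and Mrpl39 (1.87) had the largest differences, and Mrpl50 (1.75) was also among the 5 largest. The Mrps2 window holds the start of 1700007K13Rik and not that of Mrps2. Nearest to 0 were Mrpl48 (-0.06) and Mrpl2 (0.15).

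Regions as a whole also shifted. With each library centred on its median TSS region, which moved the median over all regions to -0.08, 22 members were higher and 1 lower at 2 h (23 past the threshold), with a member median of 0.50. Over all regions the centred split was 4742 higher and 4186 lower, against 9303 higher and 489 lower as deposited.

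**Figure D2:**
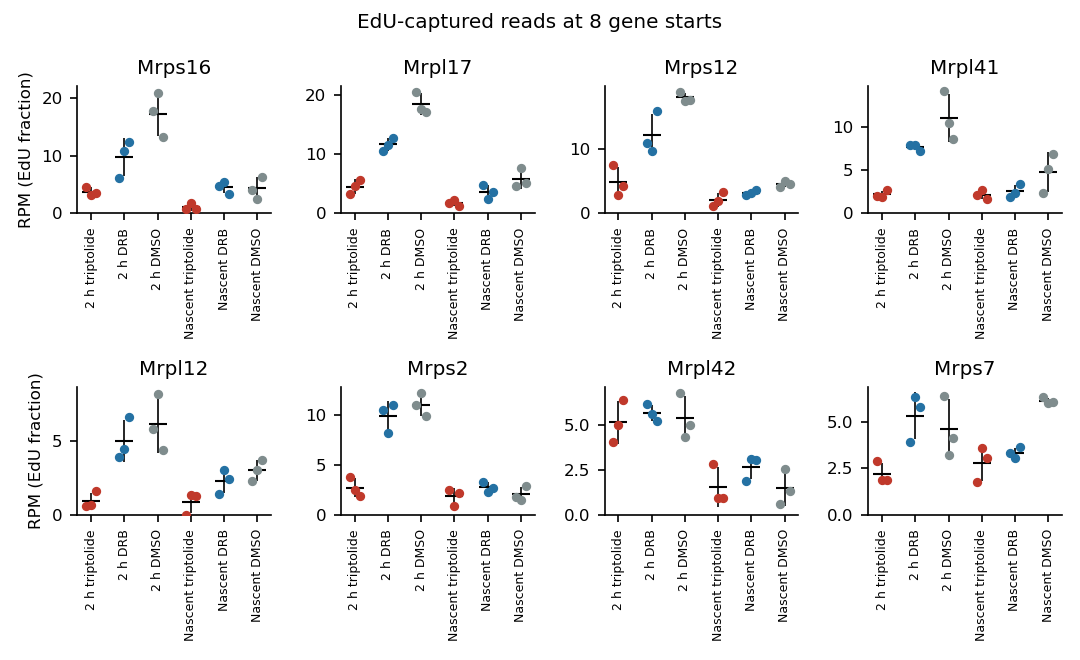
RPM in the EdU fraction at 8 gene starts, with each library as a point and mean ± SD as bars (n = 3 libraries per group), for triptolide (red), DRB (blue) and DMSO (grey) at 2 h and in nascent chromatin. Mrps16, Mrpl17, Mrps12, Mrpl41, Mrpl12 and Mrps2 are lower with triptolide than with DMSO at 2 h in every library, Mrpl42 overlaps among all 2 h groups, and Mrps7 in nascent DMSO chromatin lies between 6.06 and 6.34 RPM. The window shown for Mrps2 holds the start of 1700007K13Rik and not that of Mrps2.

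Triptolide lowered accessibility of nascent chromatin at 18 of the 71 genes and raised it at none, with a median log2 difference of -0.64 (adjusted p under 0.05). Over all regions 11.6% were lower, with a median of -0.23, and over protein-coding genes 15.9%, with a median of -0.37, and 32 members had an unadjusted p under 0.05. Mrps16 had 0.695, 1.81 and 0.720 RPM with triptolide and 4.04, 2.52 and 6.35 RPM with DMSO (-1.33, SE 0.30, adjusted p = 0.000927). Mrpl17, a conserved large-subunit protein, had 1.74, 2.26 and 1.26 RPM with triptolide and 4.61, 7.57 and 5.03 RPM with DMSO (-1.28, SE 0.29, adjusted p = 0.000872). In both, each triptolide library lay below each DMSO library, and the calls stayed under all alternatives run. The other 3 of the 5 largest were Mrps26 (-1.31), Mrpl36 (-1.28) and Mrpl58 (-1.26). Each was lost when 1 library was left out, Mrps26 without triptolide replicate 2 (adjusted p = 0.110), Mrpl36 without DMSO replicate 3 (0.0564) and Mrpl58 without triptolide replicate 1 (0.0941).

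By role, the decoding protein gene Mrps12 fell by 0.93 (adjusted p = 0.0227), with 1.04, 1.81 and 3.24 RPM with triptolide and 4.04, 5.05 and 4.50 RPM with DMSO, and Mrps7 fell by 0.95 (adjusted p = 0.0279). Mrps18b fell by 0.97 (adjusted p = 0.0194). The stalk gene Mrpl12 fell by 1.19 (adjusted p = 0.0117), with 0, 1.36 and 1.26 RPM with triptolide and 2.31, 3.03 and 3.70 RPM with DMSO. These 4 calls were lost in 3 to 8 of the alternative settings each (adjusted p up to 0.202), each of them without triptolide replicate 1 and without DMSO replicate 3. Mrps12 and Mrps18b were also lost without triptolide replicate 2, Mrps12 and Mrps7 without DMSO replicate 2, and Mrps7 without DMSO replicate 1. Mrps22, a mitochondria-specific small-subunit protein mutated in human oxidative phosphorylation deficiency, had 0.348, 1.36 and 0.720 RPM with triptolide and 2.31, 2.52 and 2.12 RPM with DMSO, and narrowly missed the threshold (-0.91, adjusted p = 0.0505). Nearest to 0 were Mrpl16 and Mrps30, and the highest was Mrpl52 (0.45, adjusted p = 0.396).

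The count depends on single libraries and on scaling. Without nascent triptolide replicate 1 it was 8, without nascent DMSO replicate 3 it was 7, and with libraries centred on the median TSS region it was 4, all lower, with a member median of -0.41. Over all regions 358 were higher and 1200 lower after centring, against 134 higher and 3446 lower as deposited.

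At 2 h more of the genes passed the threshold with triptolide. Accessibility fell at 38 of the 71 genes and rose at none, with a median log2 difference of -0.90, where 28.6% of all regions fell (median -0.29) and 39.3% of protein-coding genes (median -0.61). Mrps16 had 4.61, 3.10 and 3.46 RPM with triptolide and 17.8, 20.9 and 13.3 RPM with DMSO (-1.95, SE 0.30, adjusted p = 6.06e-08). Mrpl41 had 2.02, 1.86 and 2.66 RPM with triptolide and 14.1, 10.4 and 8.57 RPM with DMSO (-1.90, SE 0.31, adjusted p = 1.98e-07). Mrpl12 had 0.576, 0.621 and 1.60 RPM with triptolide and 5.82, 8.27 and 4.43 RPM with DMSO (-1.90, SE 0.34, adjusted p = 2.86e-06). None of these groups overlapped. Mrps21, a small-subunit protein with bacterial relatives, fell by 1.92 (adjusted p = 4.97e-06), and Mrpl17 had 3.17, 4.66 and 5.58 RPM with triptolide and 20.5, 17.6 and 17.1 RPM with DMSO (-1.85, adjusted p = 7.49e-08).

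Of the other genes named for their role, Mrps12 (-1.79), Mrps34 (-1.54), Mrps18c (-1.49), Mrps18b (-1.18), Mrps35 (-1.07), Mrpl58 (-0.94) and Mrps7 (-0.78) fell. The call of Mrps35 was lost without triptolide replicate 2, among other settings (adjusted p up to 0.182). That of Mrpl58 was lost without triptolide or DMSO replicate 1 (up to 0.211), and that of Mrps7 without triptolide replicate 2 or 3 or DMSO replicate 1 or 3 (up to 0.309). Mrpl10 (-0.86), Mrps18a (-0.84), Mrps5 (-0.67), Mrps22 (-0.29), Mrpl44 (-0.14) and Mrpl11 (-0.09) did not pass, and nor did Mrpl3, which had 1.73, 0.931 and 1.06 RPM with triptolide and 0.307, 0.360 and 0.277 RPM with DMSO (0.75, adjusted p = 0.103). Mrpl3 was the highest of the members, and its DMSO values stand for about 1 read in each library. Nearest to 0 were Mrpl42, a mitochondria-specific large-subunit protein, with 4.03, 4.97 and 6.38 RPM with triptolide and 6.74, 4.32 and 4.98 RPM with DMSO (-0.05), and Mrpl52 (-0.06).

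Of the 18 genes that fell in nascent triptolide chromatin 17 (94.4%) also fell at 2 h, which is 44.7% of the 38, and Mrpl43 was the exception. The nascent and 2 h comparisons share no library. Overlaps of calls, here and below, were not counted over all regions, so they cannot be called particular to these genes. Whether the triptolide difference itself was larger at 2 h than in nascent chromatin was tested per gene, and no member passed (0.419% of all regions lower), with a median of -0.36 and 9 members at an unadjusted p under 0.05. With libraries scaled to background windows 4 members passed, all lower, and 898 regions in place of 125 were lower. With the replicate block, with a mean RPM of at least 1 or with only the groups compared, 1 member passed. Mrps2, whose window does not hold its own start, came nearest (-1.61, adjusted p = 0.0577). With libraries centred on the median region, 22 members fell and 1 rose with triptolide at 2 h (median -0.54), against 4627 lower and 2449 higher over all regions, where 8516 were lower and 812 higher as deposited.

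**Figure D3:**
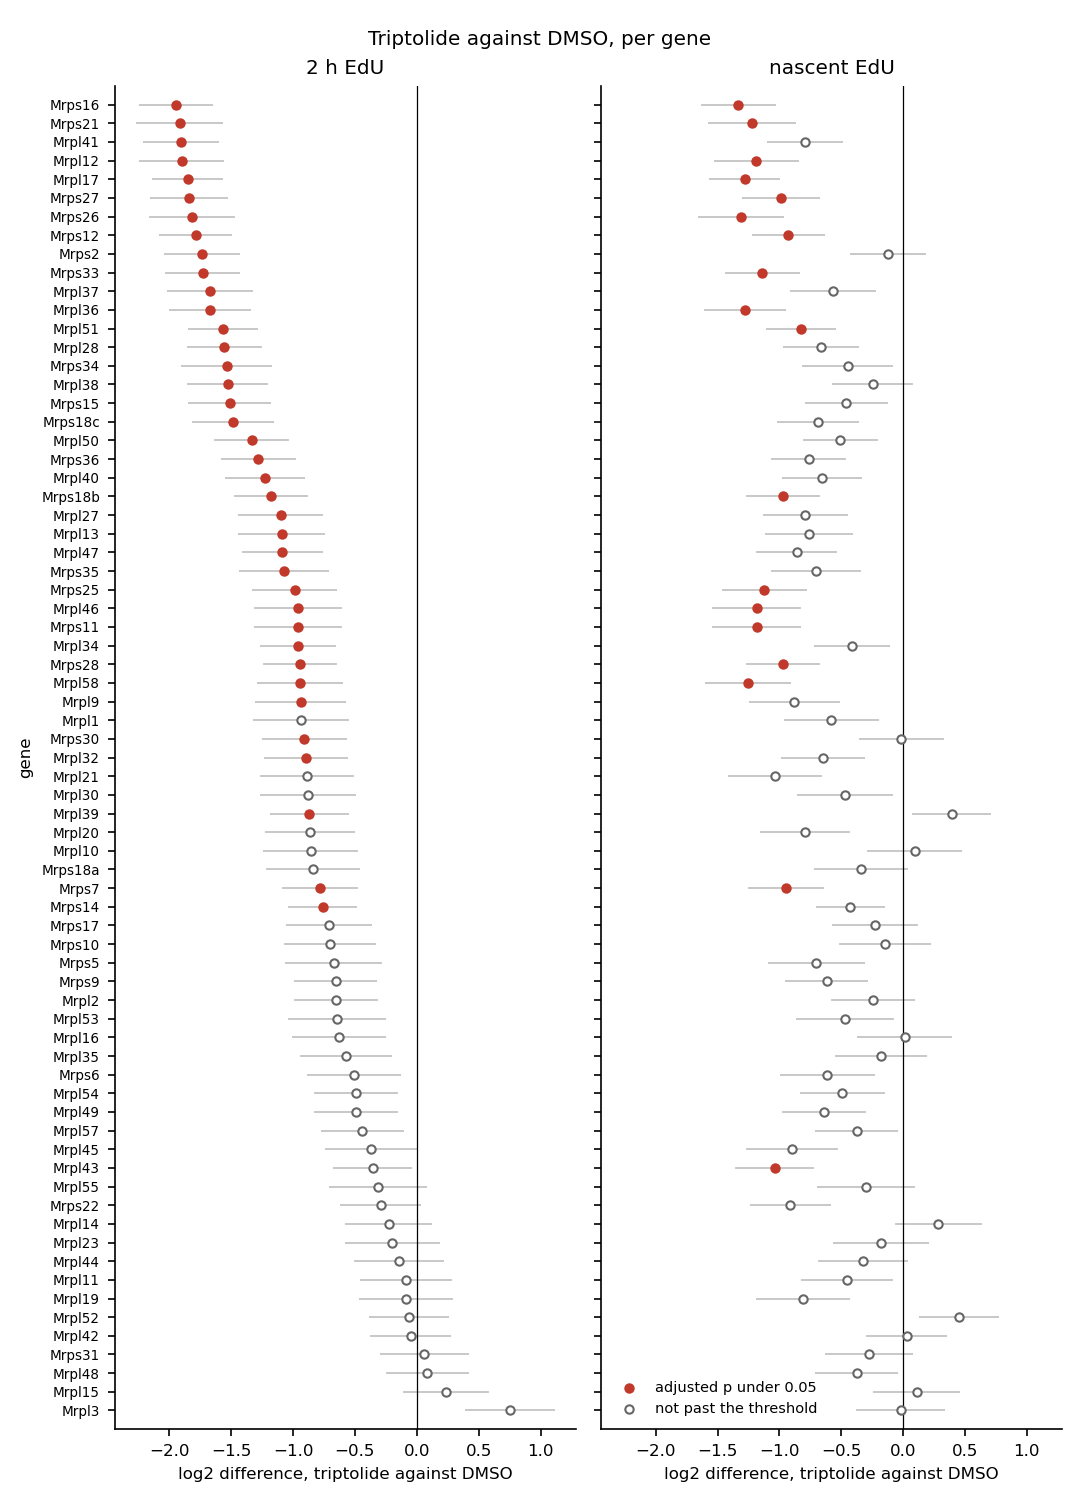
Log2 difference of triptolide against DMSO in 2 h EdU chromatin (left) and nascent EdU chromatin (right) for each of the 71 genes, ordered by the 2 h value, with standard errors as bars, and red points for adjusted p under 0.05. The 38 red points on the left run from -1.95 to -0.76 and the 18 on the right from -1.33 to -0.82, and no point to the right of 0 is red.

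Among the 17 genes that fell in nascent triptolide chromatin and have a promoter sequence, 11 (64.7%) held the ETS letters shown in capitals above, against 10 of the 46 (21.7%) that did not pass. The 11 include Mrps16, whose matches lie inside the gene. For the same split the shares were 29.4% and 13.0% for YY1, 64.7% and 45.7% for SP, 11.8% and 8.70% for NRF1, 5.88% and 4.35% for the TATA box, and 29.4% and 43.5% for NFY. At 2 h the ETS shares were 39.4% (13 of 33) and 26.7% (8 of 30). These are descriptions without a test, and the ETS motif, which differed most in nascent chromatin, was singled out after the values were seen.

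With DRB few of these genes passed the threshold. In nascent chromatin 1 of the 71 genes passed the threshold, against 3.37% of all regions lower, and the member median was -0.34. The gene was Mrps26, of the small subunit and specific to mitochondria, with 0.946, 0.770 and 0.907 RPM with DRB and 3.46, 2.02 and 4.23 RPM with DMSO (-1.14, SE 0.35, adjusted p = 0.0415). This call was lost in 10 alternative settings, among them without DMSO replicate 1 or 3 and without any 1 of the 3 DRB replicates (adjusted p up to 0.209). The DRB differences of all 71 ran between -1.14 and 0.63, with Mrpl30 and Mrps18b nearest to 0. At 2 h no member passed (0.621% of all regions lower), the median was -0.16, and 9 members had an unadjusted p under 0.05. Limma-voom on recovered reads called 4 members, with 949 regions lower and 204 higher over the genome. The lowest was again Mrps26, with 3.50, 1.49 and 4.93 RPM with DRB and 10.1, 8.27 and 6.64 RPM with DMSO (-1.19, adjusted p = 0.0682). Mrpl41 had 7.86, 7.84 and 7.25 RPM with DRB at 2 h, below each of the DMSO libraries, and did not pass (-0.45, adjusted p = 0.591).

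Set directly against DRB in nascent chromatin, triptolide gave lower accessibility at 1 of the 71 genes, where 0.577% of all regions were lower, and the median difference was -0.24. Mrps16 had 0.695, 1.81 and 0.720 RPM with triptolide and 4.73, 5.39 and 3.33 RPM with DRB, and no library of either group overlapped the other (-1.42, SE 0.30, adjusted p = 0.0138). Without triptolide replicate 1, and in 4 further settings, the call was lost (adjusted p up to 0.105). Doses are not given, so the strengths of the 2 inhibitors cannot be compared from these values.

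Accessibility was also higher in 2 h than in nascent chromatin of cells treated with either inhibitor, where it is unknown whether the drug stayed on in the chase. With triptolide 18 of the 71 genes rose and none fell, with a median of 0.60 (14.1% of all regions, and 19.0% of protein-coding genes with a median of 0.41). Mrpl42 had 4.03, 4.97 and 6.38 RPM at 2 h and 2.78, 0.905 and 0.900 RPM in nascent triptolide chromatin (1.34, SE 0.32, adjusted p = 0.00159). Mrps22 had 3.46, 3.41 and 3.19 RPM at 2 h and 0.348, 1.36 and 0.720 RPM in nascent triptolide chromatin (1.30, SE 0.33, adjusted p = 0.00237). In both genes all 2 h libraries were the higher ones. Mrps18b (1.33), Mrps16 (1.22) and Mrpl44 (1.20) were the others of the 5 largest, and Mrpl44 was lost without nascent or 2 h triptolide replicate 1 (adjusted p up to 0.0982). Mrpl41 (0.02) and Mrpl35 were nearest to 0. The count was 11 without nascent triptolide replicate 1, 9 without 2 h triptolide replicate 3 and 4 with centred libraries, where 1437 regions were higher and 727 lower over the genome, against 4204 and 116 as deposited. With no filter on low values it was 8. Scaled to background windows it was 38, with 8761 regions higher and 76 lower.

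With DRB 47 of the 71 genes rose and none fell, with a median of 1.04 (35.1% of all regions, and 47.2% of protein-coding genes with a median of 0.78). Mrps21 had 4.37, 4.85 and 5.22 RPM at 2 h and 0.473, 0.770 and 0.605 RPM in nascent DRB chromatin (1.85, SE 0.36, adjusted p = 7.92e-06), and these nascent values stand for 1 or 2 reads. Mrpl13 (1.74), Mrpl51 (1.73), Mrpl2 (1.66) and Mrps12 (1.63) followed, and Mrpl3 (-0.02) and Mrpl19 (0.03) were nearest to 0. After centring 25 members were higher and none lower, where 5950 regions were higher and 4455 lower over the genome, against 10463 and 586 as deposited. Of the 40 genes that rose with DMSO 34 (85.0%) also rose with DRB, which is 72.3% of the 47, and these 2 comparisons share no library. Of the 18 that rose with triptolide 15 (83.3%) rose with DMSO, with Mrpl43, Mrpl58 and Mrps22 the exceptions.

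Whether the rise differed between an inhibitor and DMSO was again tested directly. No member passed for triptolide (as given above) or for DRB, where 0.0134% of all regions were higher, the member median was 0.11, and 5 members had an unadjusted p under 0.05. Mrpl2 was the highest in the DRB contrast (1.50, adjusted p = 0.350).

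The unbound fraction was compared in the same way. In the 2 h unbound libraries triptolide lowered accessibility at 18 of the 71 genes and raised it at none, with a median of -0.30 (12.2% of all regions, median -0.06, and 16.1% of protein-coding genes, median -0.12). Scaled to background windows the count was 41, all lower, and 7718 regions in place of 3711 were lower. Mrpl27, a conserved large-subunit protein near the peptidyl transferase centre, had 3.57, 3.53 and 3.78 RPM with triptolide and 6.74, 8.77 and 7.29 RPM with DMSO (-0.89, SE 0.16, adjusted p = 7.14e-05). Mrpl12 had 4.49, 2.27 and 3.70 RPM with triptolide and 6.87, 7.81 and 5.56 RPM with DMSO (-0.81, SE 0.17, adjusted p = 0.00062). Both sets of libraries were apart. Mrpl51 (-0.75), Mrpl28 (-0.69) and Mrps21 (-0.65) completed the 5 largest, and Mrps21 was lost without triptolide replicate 2 (adjusted p = 0.0578). All 18 of these genes are among the 38 that fell in 2 h EdU chromatin (47.4% of the 38). The comparisons share no library, but both fractions come from the same treated samples, so they are not independent. In nascent unbound chromatin 1 member passed with triptolide (1.53% of all regions lower), Mrps26 with 10.1, 6.68 and 8.42 RPM with triptolide and 13.3, 12.8 and 11.7 RPM with DMSO (-0.55, SE 0.15, adjusted p = 0.0388). That call was lost in 6 settings (adjusted p up to 0.295), without triptolide replicate 2 or 3 and without DMSO replicate 1 or 2 among them. With DRB no member passed in nascent unbound (0.637% of all regions lower; 10 members at an unadjusted p under 0.05) or 2 h unbound chromatin (0.769% of all regions higher; 11 members), where limma-voom on recovered reads called 0 and 1 member.

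The triptolide effect in nascent chromatin was set against that in the unbound fraction by a contrast within 1 fit. It was more negative in EdU chromatin at 8 of the 71 genes and less negative at none, with a median of -0.59 (7.09% of all regions, and 9.77% of protein-coding genes). The member count lies near the protein-coding share. Mrpl58 had 0, 0.905 and 0.720 RPM with triptolide and 2.88, 3.03 and 1.85 RPM with DMSO in nascent EdU chromatin, but 5.25, 5.51 and 5.43 RPM with triptolide and 4.19, 4.25 and 3.85 RPM with DMSO in unbound chromatin (-1.58, SE 0.38, adjusted p = 0.00627). The groups are thus apart in opposite directions in the 2 fractions. The count was between 3 and 5 without nascent DMSO EdU replicate 3, nascent DMSO unbound replicate 2 or 3, or any 1 of the 3 nascent triptolide unbound replicates, and 1 with centred libraries. For DRB the contrast passed at 1 gene, Mrpl2 (0.397% of all regions lower), a large-subunit protein of the peptidyl transferase region, with 0.473, 0.770 and 1.51 RPM with DRB and 2.31, 3.03 and 3.44 RPM with DMSO in nascent EdU chromatin (-1.51, SE 0.35, adjusted p = 0.0362). That call was lost in 10 settings, without any 1 of the 6 unbound libraries of the contrast among them (adjusted p up to 0.321).

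**Figure D4:**
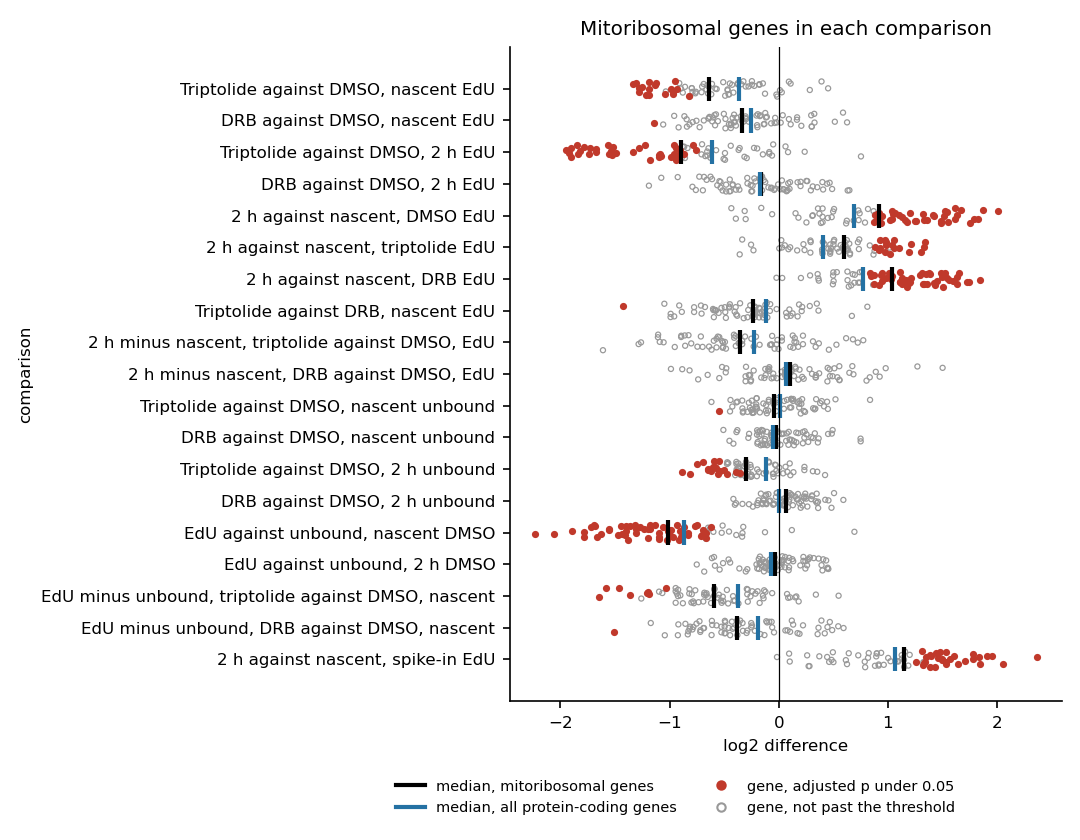
Log2 difference of each of the 71 genes (points, red for adjusted p under 0.05) in each comparison, named as first group against second, with the median of the mitoribosomal genes (black bar) and of all protein-coding genes (blue bar). The 2 medians lie on the same side of 0 in the comparisons with the largest changes, and the mitoribosomal one is farther from 0, for example -0.90 against -0.61 for triptolide at 2 h.

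In the experiment with added S2 cells, read in 5 kb regions on a scale whose relation to the S2 reads is unknown here, the rise was present again. The median over the member regions was 97.6 and 91.2 in the 2 h libraries and 32.8 and 56.9 in the nascent libraries, against 44.7 and 42.3, and 18.6 and 34.1, over all TSS regions (deposited values with the log2 undone). At 2 h 30 of the 71 genes were higher and none lower, with a median log2 difference of 1.15 (30.1% of all 30618 regions, median 0.79, and 38.7% of protein-coding genes, median 1.07). Mrps22 had 74.6 and 64.7 at 2 h and 8.74 and 18.2 in nascent chromatin (2.37, SE 0.56, adjusted p = 0.000679). Mrps18b had 342 and 312 at 2 h and 63.4 and 95.6 in nascent chromatin (2.05, SE 0.56, adjusted p = 0.00274). Mrps28 (1.95), Mrpl50 (1.91) and Mrpl48 (1.85) followed, and Mrpl48 is a gene that differed by only -0.06 in the 1 kb window of the inhibitor experiment. Nearest to 0 were Mrpl3 (-0.02) and Mrps31 (0.10). With 2 libraries a group the count rests on each of them: it was 0 without either 2 h library, 66 without nascent replicate 2, and 1 with the replicate number as a block. After centring, 25 members were higher and 3 lower (median 0.33), with 8228 regions higher and 6151 lower, against 9223 and 414 as deposited.

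The peak lists were used without a test, since each is a single list per group. Within 1000 bp of the start, 57 of the 71 genes (80.3%) had a nascent peak, 60 (84.5%) a 30 min peak, 62 (87.3%) a 1 h peak, and all 71 a 2 h and a steady-state peak. Over protein-coding genes the shares were 49.4%, 57.6%, 61.5%, 67.3% and 72.8%. Mrpl1, Mrpl16, Mrpl21, Mrpl44, Mrps10 and Mrps6 were first listed at 30 min, Mrpl10, Mrpl30, Mrpl55 and Mrps31 at 1 h, and Mrpl13, Mrpl23, Mrpl3 and Mrpl35 at 2 h. The order is not strict, since 6 genes with a nascent peak lacked one in a later list: Mrpl19 and Mrpl54 at 30 min, Mrpl53 at 30 min and 1 h, and Mrpl2, Mrps18a and Mrps5 at 1 h. The lists grow in total between 47341 nascent and 166636 steady-state peaks, and the depth behind them is unknown. An S5P peak, a mark of initiating RNA polymerase II, was listed at 44 genes (62.0%), against 25.8% of protein-coding genes, and of these 37 had a nascent peak. Of the 27 genes without an S5P peak 20 had a nascent peak.

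**Figure D5:**
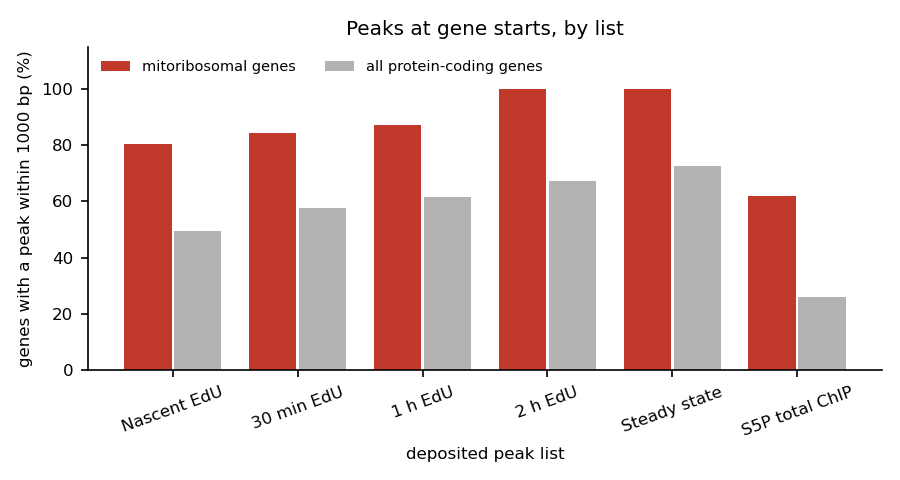
Share of the 71 mitoribosomal genes (red) and of 18471 protein-coding genes (grey) with a listed peak within 1000 bp of the start, for each deposited list. The red bars run from 80.3% in nascent to 100% in 2 h and steady-state chromatin, and the S5P bar stands at 62.0%, each above its grey bar.

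Genes of the 2 symbol groups and genes with and without S5P were described by their counts. Of 27 Mrps genes 11 fell in nascent triptolide chromatin (median -0.71), and of 44 Mrpl genes 7 (median -0.54), where 15.9% of protein-coding genes fell (median -0.37). At 2 h the counts were 19 of 27 (median -0.99) and 19 of 44 (median -0.87), where 39.3% of protein-coding genes fell (median -0.61). The Mrpl counts lie near these shares. Of the 44 genes with an S5P peak 26 fell at 2 h with triptolide (median -0.94), and of the 27 without 12 (median -0.71). All 18 genes that fell in nascent triptolide chromatin had a nascent peak, and of the 14 genes without one, whose median was 1.25 RPM in nascent DMSO chromatin against 2.57 RPM for the other 57, 1 fell at 2 h. The part of this difference in level in the counts was not tested. The 33 genes with an opposite-strand neighbour within 1000 bp and the 38 without gave medians of -0.96 and -0.85 with triptolide at 2 h.

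Other genes of mitochondrial translation were counted in 5 lists. Their counts stand against 39.3% of protein-coding genes and 28.6% of all regions lower with triptolide at 2 h, and 15.9% and 11.6% in nascent chromatin. The mitoribosome proteins with other symbols and the translation factors lie near these shares or are too few to set apart from them. Of 5 mitoribosome proteins with other symbols 3 fell with triptolide at 2 h (median -0.77), namely Aurkaip1 (-1.21), Ptcd3 (-0.90) and Chchd1 (-0.77), and in nascent chromatin 0 passed. Of 11 measured translation factors 5 fell at 2 h (median -0.84) and 3 in nascent chromatin (median -0.40), for example the release factor gene Mtrf1 (-1.94 at 2 h), the elongation factor genes Tufm (-1.45) and Gfm1 (-1.33). Of 25 genes for mitoribosome assembly and rRNA modification 15 fell at 2 h and 7 in nascent chromatin, with the rRNA methyltransferase gene Nsun4 (-2.04), Mettl17 (-1.93) and the GTPase gene Mtg1 (-1.66) lowest at 2 h. Of 15 mitochondrial aminoacyl-tRNA synthetase genes 12 fell at 2 h (median -1.24) and 7 in nascent chromatin (median -0.88), with Ears2 (-2.22), Sars2 (-1.79), whose window is that of Mrps12, and Pars2 (-1.63) lowest at 2 h. Of 12 genes for mitochondrial transcription and its regulators 10 fell at 2 h (median -1.23) and 7 in nascent chromatin (median -0.99), Tfb2m (-2.13), Yy1 (-2.01) and Ppargc1b (-1.76) at 2 h and Tfam (-1.38) and Nrf1 (-1.28) in nascent chromatin among them. With DRB in nascent chromatin 1 of the 12 transcription genes passed, Nrf1 (-1.19, adjusted p = 0.0362), and 1 of the 25 assembly genes, Nsun4 (-1.12, adjusted p = 0.0483). None passed in the other lists. Over all regions 3.37% were lower and over protein-coding genes 4.43%, and these calls are too few to set apart from those shares. None of the 5 lists had a member past the threshold in the opposite direction in these comparisons.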

How the data were processed

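Chromatin accessibility was read from repli-ATAC-seq of mouse embryonic stem cells. Per the submitters' processing notes, reads were trimmed with Trim Galore 0.4.2 and aligned with Bowtie2 2.2.6.2 to mm10. The authors deposited log2(RPM + 1) values in 1 kb windows at 500 bp steps and in 5 kb TSS regions, per the file headers, and peak positions without scores, the other deposited measure, with replicates combined (peak caller: not given in the sources used here). RPM was obtained by undoing the log2, and whole reads from the RPM steps (100% of values within 0.1 read). A gene took the TSS region nearest its start within 1000 bp and the 1 kb window nearest that region. Comparisons used limma 3.58.1 with a mean trend (R 4.3.3) on the deposited log2 values, in fits of 18 EdU, 18 unbound or all 36 inhibitor libraries or 4 spike-in libraries, over regions above 0 in 3 or more libraries (spike-in: 2), with Benjamini-Hochberg adjustment over all regions and a threshold of 0.05. The fitting was tested on simulated data. The labels do not call replicates separate cultures, and a p-value then reflects no more than library-to-library spread, which may be technical.

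A log2(RPM + 1) difference understates the change of low values, and RPM is relative to each library's total. Members, gene lists, motifs and tests were chosen with earlier results of these data known. Named were 18 members of known role, and per comparison the 5 largest past the threshold and the 2 nearest 0, with up to 3 genes per pathway list; further genes named for illustration, such as Mrps2 at the 2 h interaction, were chosen after their values were seen. Mrpl4, in the role list, has no TSS region in reach. Gene models and promoters are from RefSeq. Alternatives covered pseudocount, filter, scaling, model, window, TSS region, samples in the fit, replicate block and leaving out each library. Tables were handled with Python 3.11.15, pandas 2.3.3 and numpy 2.4.6.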

Additional observations from a re-analysis of the deposited data

Results flagged for a closer look

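The effect of an inhibitor differed between nascent EdU and nascent unbound chromatin at 8 genes for triptolide and at 1 gene for DRB, by a limma contrast of the difference itself (adjusted p under 0.05 over all TSS regions). The 8 genes are 11.3% of the members, against 7.09% of all regions and 9.77% of protein-coding genes. That is near the protein-coding share, so the count does not set these genes apart. The 1 gene stands against 0.397% of all regions and 0.444% of protein-coding genes, and is too few to set apart. The log2 differences were -1.65 for Mrpl19, -1.58 for Mrpl58, -1.46 for Mrps25, -1.36 for Mrpl17, -1.21 for Mrpl13, -1.20 for Mrps21, -1.19 for Mrps16 and -1.03 for Mrps33 with triptolide, and -1.51 for Mrpl2 with DRB. Mrpl19 had 1.39, 0.453 and 1.08 RPM with triptolide and 2.31, 2.02 and 2.91 RPM with DMSO in EdU chromatin, but 3.03, 2.58 and 2.65 RPM with triptolide and 2.39, 0 and 1.72 RPM with DMSO in unbound chromatin. Without nascent DMSO unbound replicate 2, which holds the 0, and in 7 further settings this call was lost (adjusted p up to 0.177). Mrpl17 had 1.74, 2.26 and 1.26 RPM with triptolide and 4.61, 7.57 and 5.03 RPM with DMSO in EdU chromatin, and 20.7, 18.6 and 19.1 RPM with triptolide and 17.9, 21.3 and 16.3 RPM with DMSO in unbound chromatin, where the groups overlap. Mrpl2 had 6.59, 4.47 and 6.27 RPM with DRB and 3.14, 4.25 and 4.42 RPM with DMSO in unbound chromatin, where the DRB difference did not pass the threshold. The calls of Mrpl13, Mrps16, Mrps25 and Mrpl58 were lost in 9, 5, 4 and 1 of the settings (adjusted p up to 0.175, 0.119, 0.0926 and 0.058), and that of Mrpl2 in 10 (up to 0.321). Those of Mrps21 and Mrps33 were not followed gene by gene across the settings. With libraries centred on the median TSS region the triptolide count was 1 in place of 8.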

How the results depend on the processing

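Of the named differences past the threshold none changed direction under the alternatives run: 1304 of their values stayed past it and 220 did not. Named differences that did not pass were not followed across alternatives. With libraries centred on the median TSS region, counts were 4 for triptolide in nascent and 23 in 2 h EdU chromatin, 0 for DRB in nascent EdU chromatin, 23, 4 and 25 for 2 h against nascent with DMSO, triptolide and DRB, 2 for triptolide in nascent unbound chromatin, 35 for EdU against unbound, and 1 and 0 for the EdU minus unbound contrasts of triptolide and DRB. Scaled to background windows, they were 4 and 5 for DRB in nascent and 2 h EdU chromatin, 38 for 2 h against nascent with triptolide, 0 for triptolide against DRB, 4 for the 2 h minus nascent contrast of triptolide, 41 for triptolide in 2 h unbound chromatin, and 4 and 0 for the EdU minus unbound contrasts of triptolide and DRB. Over all regions this scaling moved the DRB calls from 1003 to 1415 lower in nascent EdU chromatin. At 2 h it moved them from 185 to 1727 lower. With a pseudocount of 0.5 DRB in nascent EdU chromatin gave 0. With no filter, counts were 0 for DRB in nascent EdU chromatin, 8 for 2 h against nascent with triptolide, 0 for triptolide against DRB, 0 for triptolide in nascent unbound chromatin and 0 for the spike-in. With a mean RPM of at least 1, they were 3 for DRB in nascent EdU chromatin, 1 for the 2 h minus nascent contrast of triptolide, and 3 and 1 for triptolide and DRB in nascent unbound chromatin. With limma-voom on recovered reads, they were 0 and 4 for DRB in nascent and 2 h EdU chromatin, 0 for triptolide against DRB, 1 for DRB in 2 h unbound chromatin and 0 for the EdU minus unbound contrast of DRB. In 2 kb windows, they were 2 and 3 for DRB in nascent and 2 h EdU chromatin, 1 for DRB in nascent unbound chromatin, and 1 for triptolide there, which was higher rather than lower. With only the groups compared in the fit, they were 0 and 6 for DRB in nascent and 2 h EdU chromatin, 0 for triptolide against DRB, 1 for the 2 h minus nascent contrast of triptolide, and 5 and 0 for the EdU minus unbound contrasts of triptolide and DRB. Counts over all regions also moved with the setting, so a changed member count is not read as particular to these genes. The cause of these changes was not tested. An S5P peak covering the start itself was listed at 27 genes (38.0%, against 16.8% of protein-coding genes). The split by S5P used the 44 genes with a peak within 1000 bp.

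The main fits did not pair libraries, although EdU and unbound fractions come from the same samples. Same-numbered libraries deviated with correlations between -0.0233 and 0.119, and for EdU against unbound in 2 h DMSO chromatin up to 0.108. With the replicate block, counts were 3 for DRB in nascent EdU chromatin, 1 for the 2 h minus nascent contrast of triptolide, 2 for triptolide in nascent unbound chromatin and 1 for the spike-in; the other counts stayed within 1.5 times.

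Leaving out 1 library at a time gave 7 to 17 for triptolide in nascent and 28 to 36 in 2 h EdU chromatin, 0 to 2 and 0 to 1 for DRB there, 29 to 36, 9 to 14 and 37 to 42 for 2 h against nascent with DMSO, triptolide and DRB, and 0 to 2 for triptolide against DRB. It gave 0 to 1 for the 2 h minus nascent contrast of triptolide, 0 to 1 for triptolide in nascent and 12 to 18 in 2 h unbound chromatin, 46 to 55 for EdU against unbound, 3 to 10 and 0 to 1 for the EdU minus unbound contrasts of triptolide and DRB, and 0 to 66 for the spike-in, where the lone library is assumed to vary like the other group. Without nascent DMSO unbound replicate 1 the 1 triptolide call in nascent unbound chromatin was higher rather than lower. The matching counts over all regions are not given here. With 2 to 8.5 reads in a median nascent member window, small changes of single genes were not detectable.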
